A study of Mus musculus with 4 samples.

Results

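Chemokines are small secreted proteins that direct the migration of leukocytes along a gradient, and their receptors are 7-pass membrane proteins coupled to Gi proteins. They are classed as CC, CXC, CX3C or XC by the spacing of their first cysteines. Inflammatory chemokines are induced in damaged or infected tissue, where CC ligands of CCR2 bring in monocytes and CXC ligands of CXCR2 bring in neutrophils. Homeostatic chemokines such as CXCL12 are made constantly and place cells within a tissue. Atypical receptors bind chemokines without signaling through Gi proteins and remove them from the surroundings. In skeletal muscle, chemokines are known for the recruitment of monocytes and macrophages during regeneration.

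The genes described here are those whose symbol belongs to the Ccl, Cxcl, Ccr, Cxcr or Ackr series, together with Cx3cl1, Cx3cr1, Xcl1, Xcr1 and Pf4. Only probe sets annotated to exactly 1 gene were used, which gave 56 genes of the 22180 measured, 35 ligands and 21 receptors. They are measured by 57 probe sets. Ccl27a has more than 1, and the brightest on average stands for it. A further 33 probe sets name a chemokine gene of this series together with other genes, among them copies of Ccl19, Ccl21 and Ccl27, and are not used here.

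RNA of whole plantaris muscle of male mice was hybridized to Affymetrix Mouse Gene 2.0 ST arrays 10 days after surgery, with 1 array for each of 4 conditions. The conditions were M-PDK1KO mice after synergistic muscle ablation, M-PDK1KO mice after sham surgery, control mice after ablation and control mice after sham surgery. Ablation removed the gastrocnemius and soleus of both lower limbs, which places the plantaris under mechanical load. M-PDK1KO mice carry floxed alleles of Pdpk1, the gene for the kinase PDK1, with a Cre transgene under the promoter of myosin light chain 1f, which is active in skeletal muscle fibers. The paper describes its control mice as homozygous for the floxed allele without Cre, on the C57/BL6 background that all the mice share, whereas the sample labels call them wild type. The age of the mice used for the arrays, and whether an array holds the RNA of 1 mouse or of several, are not given in the sources used here. Deposited values are log2 signals per probe set, and their scale is taken from their range. Pdpk1 had log2 signals of 6.23 in ablated and 5.96 in sham-operated M-PDK1KO mice, against 6.85 in ablated and 6.81 in sham-operated control mice. All 6 myofiber markers, Ckm and Acta1 among them, were above 3.23 on each array, which is the median value over genes and arrays and is called the overall median here.

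The response to ablation is given as log2(ablation/sham) within each genotype. It has no test there, since each condition has a single array. The response averaged over M-PDK1KO and control mice was tested by limma, with terms for ablation and for genotype, and a gene is said to rise or fall where its p, adjusted over all genes, is under 0.05. With 1 residual degree of freedom, a gene's own spread in this fit is how far the response of M-PDK1KO mice departs from that of control mice, which limma moderates with the spread of all other genes. Whole muscle holds several cell types, so a change in the number of cells of a type and a change in RNA per cell cannot be told apart.

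After ablation, 19 of the 56 chemokine and receptor genes rose and 1 fell, whereas 10.4% of all genes were called higher and 10.6% lower. With each array centred on its median, the calls over all genes were 2053 higher and 3305 lower, against 2309 and 2354 without centring. The genes that rose encode 14 ligands and 5 receptors. On both ablated arrays 29 genes lay above both sham arrays, where 26.6% of all genes did, and 6 lay below both, where 30.8% of all genes did. The median response was 0.22 in M-PDK1KO mice and 0.24 in control mice, and over all genes it was -0.02 in each genotype. With each array centred on its median, the family's median response was 0.13 in M-PDK1KO and 0.15 in control mice, and that over all genes -0.11 in M-PDK1KO and -0.10 in control mice. Signals at least 2-fold higher after ablation were seen for 13 of the 56 genes in M-PDK1KO mice (4.77% of all genes) and for 11 in control mice (4.49%). All 11 passed this cutoff in both genotypes, as did 3.56% of all genes, and the other 2 in M-PDK1KO mice were Ccl3 and Ccr1. Ccl11 was the only gene of the group at or below 0.5-fold, which it was in M-PDK1KO mice (2.71% of all genes), and none was in control mice (2.54%).

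**Figure D1:**
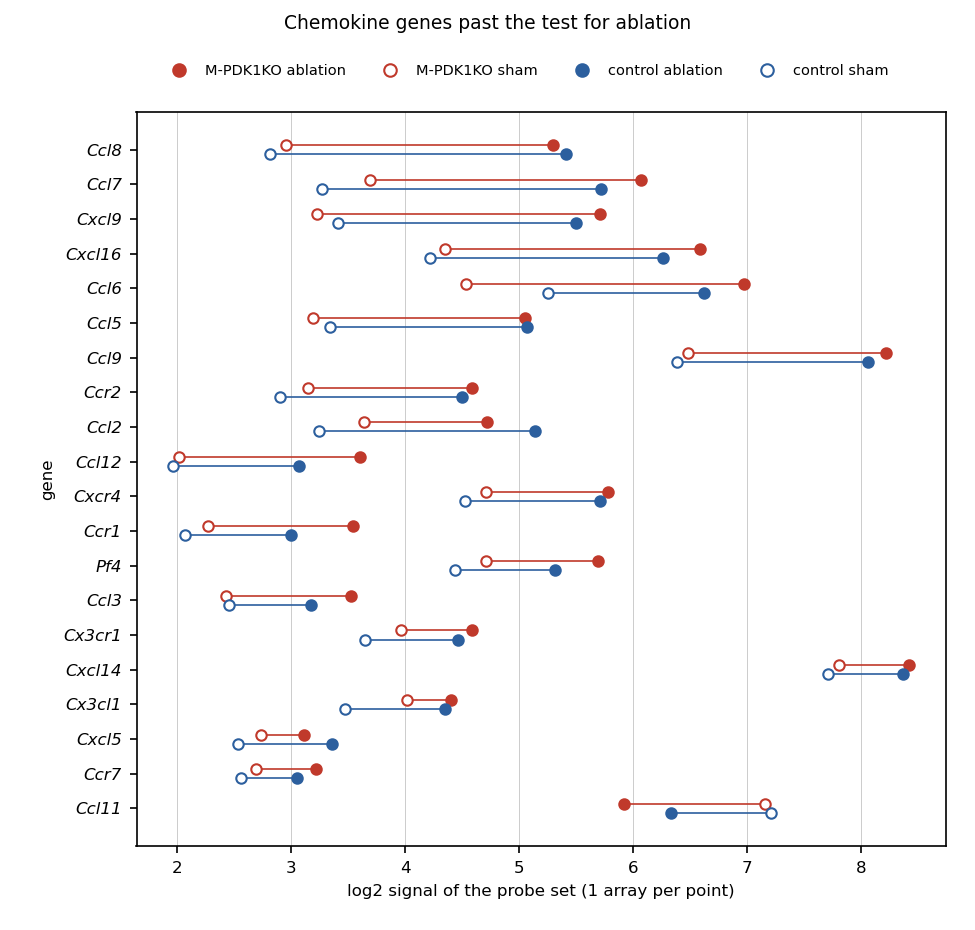
Log2 signal (x axis) of the 20 genes past the test for ablation (y axis), with 1 point per array, filled for ablation and open for sham surgery, red for M-PDK1KO and blue for control mice. In 19 genes both filled points lie right of both open points, and in Ccl11 they lie left of them.

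The 4 CC ligands of the monocyte chemoattractant family all rose. Ccl8 had log2 signals of 5.29 in M-PDK1KO and 5.41 in control mice after ablation, against 2.95 in M-PDK1KO and 2.81 in control mice after sham surgery. Its mean response of 2.47 ± 0.13 (SE; limma, adjusted p = 0.000762) was the highest fitted value of the 56 genes. Both sham values lay below the overall median, where the height above background is not known, so the size of this response is uncertain. Mouse CCL8 acts mainly through CCR8. Ccl7, which encodes a ligand of CCR2, had 6.07 in M-PDK1KO and 5.72 in control mice after ablation, against 3.69 in M-PDK1KO and 3.27 in control mice after sham surgery, a mean response of 2.41 ± 0.11 (adjusted p = 0.000746). In Ccl12, a rodent gene for another ligand of CCR2, the ablated arrays read 3.60 (M-PDK1KO) and 3.07 (control), against 2.01 (M-PDK1KO) and 1.96 (control) on the sham arrays, a mean response of 1.35 ± 0.16 (adjusted p = 0.00498). Of these 4 values only that of the ablated M-PDK1KO array was above the overall median. Ccl2, the gene for the ligand of CCR2 best known for drawing monocytes from the blood, read 4.72 (M-PDK1KO) and 5.14 (control) after ablation, against 3.64 (M-PDK1KO) and 3.24 (control) after sham surgery. Its mean response was 1.49 ± 0.21 (adjusted p = 0.00887), made up of 1.08 in M-PDK1KO and 1.89 in control mice. In all 4 genes both ablated values were above both sham values.

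Of the 5 CC ligands of the macrophage inflammatory family, 4 rose. Ccl6 and Ccl9 encode rodent ligands of CCR1. Ccl9 had log2 signals of 8.22 in M-PDK1KO and 8.06 in control mice after ablation, against 6.48 in M-PDK1KO and 6.38 in control mice after sham surgery (mean response 1.71 ± 0.11, SE, adjusted p = 0.00123). The responses of both genotypes nearly coincide for this gene. Ccl6 read 6.97 (M-PDK1KO) and 6.62 (control) on the ablated arrays, against 4.54 (M-PDK1KO) and 5.25 (control) on the sham arrays (mean response 1.90 ± 0.26, adjusted p = 0.00797). Its SE is the largest among the 56 genes, and the M-PDK1KO minus control difference was 0.35 after ablation and -0.72 after sham surgery. Ccl5, which encodes a ligand of CCR1 and CCR3 made by T cells and other leukocytes, read 5.05 in M-PDK1KO and 5.07 in control mice after ablation, against 3.19 in M-PDK1KO and 3.34 in control mice after sham surgery (mean response 1.79 ± 0.12, adjusted p = 0.00117). Ccl3, an acute inflammatory ligand of CCR1, read 3.52 (M-PDK1KO) and 3.17 (control) after ablation, against 2.43 (M-PDK1KO) and 2.45 (control) after sham surgery (mean response 0.90 ± 0.14, adjusted p = 0.0114). Ccl4, which lies next to Ccl3 in the genome, read 3.33 (M-PDK1KO) and 2.92 (control) after ablation, against 2.85 (M-PDK1KO) and 2.78 (control) after sham surgery, and did not pass (adjusted p = 0.198). Whether the probes of such related genes also bind each other's RNA was not tested.

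Ccl11 fell. It encodes eotaxin, a ligand of CCR3 that attracts eosinophils and is made by fibroblasts and other stromal cells. Its log2 signals were 5.92 in M-PDK1KO and 6.33 in control mice after ablation, against 7.16 in M-PDK1KO and 7.21 in control mice after sham surgery. Both ablated arrays were below both sham arrays, by a mean response of -1.06 ± 0.14 (SE; limma, adjusted p = 0.00692), or 0.423-fold in M-PDK1KO and 0.544-fold in control mice. The other eotaxin genes did not pass, with responses of -0.32 in M-PDK1KO and -0.0083 in control mice for Ccl24 and of -0.11 in M-PDK1KO and 0.045 in control mice for Ccl26. Ccr3, the gene for the receptor of eotaxins, read 2.06 (M-PDK1KO) and 1.82 (control) after ablation, against 1.82 (M-PDK1KO) and 1.60 (control) after sham surgery, all below the overall median (adjusted p = 0.237). All 4 markers of eosinophils were likewise below that median on each array, and none passed the test. Markers of fibroblasts moved the other way from Ccl11. Of these 5 markers, 4 rose, where 10.4% of all genes were called higher. Their mean responses were 2.71 (Lum), 2.59 (Col1a1), 1.69 (Dpt) and 0.50 (Pdgfra). Dcn, at 0.44, did not pass (limma, adjusted p = 0.0517). The summed linear signal of the 5 was 9683 in M-PDK1KO and 9210 in control mice after ablation. After sham surgery it was 3455 in M-PDK1KO and 3179 in control mice. The matrix gene Col1a1, with a log2 signal of 12.2 on each ablated array, weighs most in the ablated sums. The part of fibroblasts in the values of Ccl11 was not tested.

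None of the 7 other CC ligand genes passed the test, and their responses ranged between -0.29 and 0.26 in M-PDK1KO and between -0.65 and 0.51 in control mice. Ccl25, Ccl28 and Ccl20, which encode homeostatic or epithelial ligands, had the lowest means of these, at -0.33, -0.42 and -0.40. Of the 7 genes, 5 were below the overall median on each array.

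Of 3 ligands of CXCR3, the receptor of activated T cells, only Cxcl9 rose. Cxcl9, which is induced by interferon gamma, had log2 signals of 5.71 in M-PDK1KO and 5.50 in control mice after ablation, against 3.23 in M-PDK1KO and 3.41 in control mice after sham surgery (mean response 2.28 ± 0.14, SE, adjusted p = 0.00107). Cxcl10, a gene of the same cluster, read 3.11 (M-PDK1KO) and 3.44 (control) after ablation, against 2.98 (M-PDK1KO) and 2.62 (control) after sham surgery. Its response was 0.13 in M-PDK1KO and 0.82 in control mice, and the mean did not pass (adjusted p = 0.153). Cxcl11 had a mean response of 0.27 ± 0.12 (adjusted p = 0.187). Their receptor gene Cxcr3 read 2.57 (M-PDK1KO) and 2.80 (control) after ablation, against 2.86 (M-PDK1KO) and 2.55 (control) after sham surgery, so that its ablated and sham values overlap. Ifng itself was below the overall median on each array, with responses of 0.19 in M-PDK1KO and -0.21 in control mice (adjusted p = 0.966).

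Among 5 genes for CXC ligands of neutrophils, Cxcl5 was called higher, with log2 signals of 3.11 (M-PDK1KO) and 3.36 (control) after ablation, against 2.73 (M-PDK1KO) and 2.53 (control) after sham surgery (mean response 0.60 ± 0.15, SE, adjusted p = 0.0447). This call is lost with each array centred on its median (adjusted p = 0.0561), and 1 of its 4 values was above the overall median. Cxcl2 lay just outside the threshold at 0.55 ± 0.14 (adjusted p = 0.0505). Cxcl1, a main attractant of neutrophils, read 3.50 in M-PDK1KO and 3.38 in control mice after ablation, against 3.54 in M-PDK1KO and 3.39 in control mice after sham surgery, and its ablated and sham values overlap. Cxcl3 and Cxcl15 were below the overall median on each array, with mean responses of -0.018 and 0.20. The receptor genes Cxcr1 and Cxcr2 were also below it on each array. Cxcr2, through which these ligands act, read 2.13 (M-PDK1KO) and 2.61 (control) after ablation, against 2.18 (M-PDK1KO) and 2.41 (control) after sham surgery, and the mean response of Cxcr1 was -0.048. Of 8 markers of neutrophils, 1 passed the test (Csf3r, mean response 0.56), and the other 7, S100a8 and S100a9 among them, were below that median on each array. The summed signal of all 8 was 50.4 in M-PDK1KO and 48 in control mice after ablation, against 41.8 (M-PDK1KO) and 41.3 (control) after sham surgery.

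Of the remaining CXC ligand genes, 3 of 6 rose. Cxcl16, which encodes a membrane-bound ligand of CXCR6 that also takes up oxidized lipoprotein, had log2 signals of 6.59 in M-PDK1KO and 6.26 in control mice after ablation, against 4.35 in M-PDK1KO and 4.22 in control mice after sham surgery. Its mean response of 2.14 ± 0.12 (SE; adjusted p = 0.00091) was surpassed in the family by Ccl8, Ccl7 and Cxcl9. Cxcr6, its receptor gene, read 2.51 (M-PDK1KO) and 2.10 (control) after ablation, against 1.97 (M-PDK1KO) and 1.78 (control) after sham surgery, and its mean response of 0.43 ± 0.12 did not pass (adjusted p = 0.0666). Pf4, platelet factor 4, which macrophages also express, read 5.69 (M-PDK1KO) and 5.31 (control) after ablation, against 4.71 (M-PDK1KO) and 4.43 (control) after sham surgery (mean response 0.93 ± 0.11, adjusted p = 0.00599). None of the 3 platelet markers measured passed the test, and Itga2b and Gp5 were below the overall median on each array. Gp9, above that median on each array, had a mean response of 0.42 (limma, adjusted p = 0.0556). Both its ablated values were above both sham values. Cxcl14, a ligand expressed in epithelia and stroma, read 8.42 (M-PDK1KO) and 8.37 (control) after ablation, against 7.81 (M-PDK1KO) and 7.71 (control) after sham surgery (mean response 0.63 ± 0.11, adjusted p = 0.0173). Cxcl12, the homeostatic ligand of CXCR4, read 7.61 (M-PDK1KO) and 7.55 (control) after ablation, against 7.11 (M-PDK1KO) and 7.23 (control) after sham surgery. Its mean response of 0.41 ± 0.12 did not pass (adjusted p = 0.072), although both ablated values were above both sham values. Cxcl13 and Cxcl17 had mean responses of 0.17 and 0.12.

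Cx3cl1 encodes fractalkine, a membrane-anchored ligand made by endothelium and neurons. It read 4.40 (M-PDK1KO) and 4.35 (control) after ablation, against 4.01 (M-PDK1KO) and 3.47 (control) after sham surgery (mean response 0.63 ± 0.16, SE, adjusted p = 0.0449), and this call too is lost with each array centred on its median (adjusted p = 0.0546). Its receptor gene Cx3cr1, a marker of patrolling monocytes and resident macrophages, rose as well, with 4.59 in M-PDK1KO and 4.46 in control mice after ablation, against 3.96 in M-PDK1KO and 3.64 in control mice after sham surgery (mean response 0.72 ± 0.12, adjusted p = 0.014). Xcl1 and its receptor gene Xcr1 were below the overall median on each array, with mean responses of 0.21 and -0.16.

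**Figure D2:**
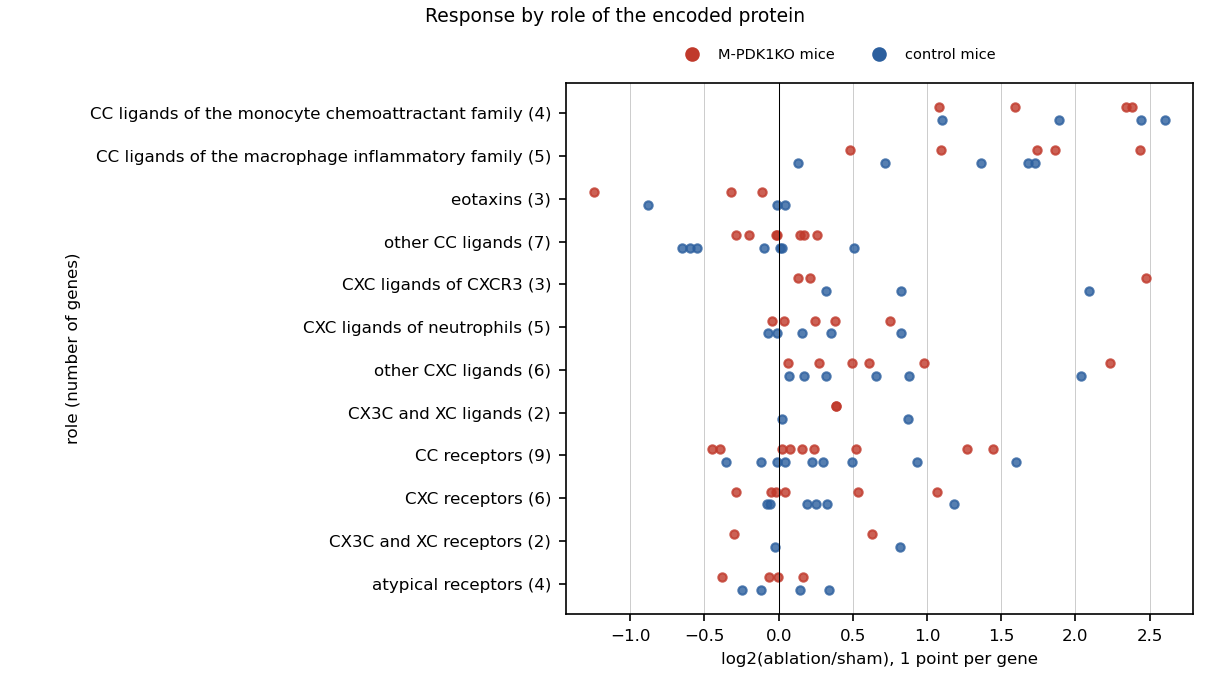
Response to ablation, log2(ablation/sham) (x axis), of the 56 genes by role of the encoded protein (y axis, with the number of genes), with 1 point per gene, red for M-PDK1KO and blue for control mice. All points of both upper groups lie right of 0. So do those of the CXC ligands of CXCR3, the other CXC ligands and the CX3C and XC ligands. Those of the atypical receptors lie between -0.38 and 0.34.

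Of 21 receptor genes, 5 rose and none fell, and 15 were below the overall median on each array. Ccr2, the receptor that brings monocytes out of bone marrow and into tissue, had log2 signals of 4.59 in M-PDK1KO and 4.50 in control mice after ablation, against 3.14 in M-PDK1KO and 2.90 in control mice after sham surgery. Its mean response of 1.52 ± 0.12 (SE; adjusted p = 0.00182) was the highest fitted value among receptors, with both sham values below the overall median. Ccr1, the receptor for CCL3, CCL5, CCL6 and CCL9, read 3.54 (M-PDK1KO) and 3.0 (control) after ablation, against 2.27 (M-PDK1KO) and 2.07 (control) after sham surgery (mean response 1.10 ± 0.13, adjusted p = 0.00581). Cxcr4, the receptor for CXCL12, read 5.78 (M-PDK1KO) and 5.71 (control) after ablation, against 4.71 (M-PDK1KO) and 4.52 (control) after sham surgery (mean response 1.12 ± 0.12, adjusted p = 0.00365). Ccr7, which guides dendritic cells and naive T cells to lymph nodes, read 3.21 (M-PDK1KO) and 3.05 (control) after ablation, against 2.69 (M-PDK1KO) and 2.56 (control) after sham surgery (mean response 0.51 ± 0.11, adjusted p = 0.033), all below the overall median. The atypical receptors Ackr1, Ackr2, Ackr3 and Ackr4 had mean responses of 0.17, -0.31, 0.024 and 0.039, and none passed. Ackr2, the scavenger of inflammatory CC chemokines, had the lowest adjusted p of these 4, at 0.132. Ccr4, Ccr6, Ccr8, Ccr9, Ccr10, Cxcr3 and Cxcr5 had mean responses between -0.20 (Ccr10) and 0.0045 (Ccr6), and were below the overall median on each array.

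Most markers of macrophages and monocytes rose after ablation. Of 12 such markers 9 rose, where 10.4% of all genes were called higher, led by Cd68 with a mean response of 3.24, and their summed linear signal was 2538 in M-PDK1KO and 2441 in control mice after ablation, against 508 in M-PDK1KO and 476 in control mice after sham surgery. Cd163, Mertk and Ly6c2 did not pass. Among 5 dendritic cell markers, Cd209a and Itgax rose, with mean responses of 2.09 and 1.51, whereas Flt3 and Batf3 were below the overall median on each array. Zbtb46 did not pass, with a mean response of -0.23, and both its ablated values were below both sham values. Of 8 T cell markers, Cd4 and Cd3g rose by means of 0.80 and 0.66. The summed signal of the 8 was 56.1 (M-PDK1KO) and 54.9 (control) after ablation, against 43.6 (M-PDK1KO) and 45 (control) after sham surgery. All of them but Cd4 were below the overall median on each array. Cd3e, Cd5 and Foxp3 had responses of opposite sign in the genotypes, and the mean for Foxp3 was -0.21. Against the same 10.4%, of 6 mast cell markers 3 rose (Cpa3, Mcpt4 and Kit), and of 5 endothelial markers 2 rose (Pecam1 and Cdh5). Mcpt4 was below the overall median on each array. The mast cell markers Tpsb2, Cma1 and Fcer1a did not pass, with mean responses of 0.54, 0.33 and -0.043. Nor did the endothelial markers Emcn, Kdr and Tek, at 0.35, -0.062 and -0.41, and for Tek both ablated values were below both sham values. No marker passed among 6 of NK cells, 4 of B cells or 3 of lymphatic endothelium. Of 6 myofiber markers, Myh4 and Actn3 fell, with mean responses of -0.52 and -0.48, where 10.6% of all genes were called lower. Ckm, Tnnt3, Acta1 and Mylpf did not pass, at -0.32, -0.30, 0.0083 and 0.18. For Ckm and Tnnt3 both ablated values were below both sham values, and for Mylpf both were above. The marker lists were chosen with earlier results of these data known, so their counts are descriptions only. The part of these cells in the chemokine values was not tested.

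For all but 4 of the 56 genes the responses of the genotypes lay within 2 SD of each other, the SD being that of the difference over all genes. The difference of response (M-PDK1KO minus control) had a median of 0.03, and it was above 0 in 30 of 56 genes. With single arrays it has no test. This SD was 0.32, and 5.32% of all genes lay more than 2 SD from 0. The 4 genes were Ccl6 at 1.07, Ccl2 at -0.81, Ccr8 at -0.69 and Cxcl10 at -0.69. Ccl6 was the only gene of the family that differed by 2-fold or more, a difference that 0.762% of all genes had. For Ccl2, Cxcl10 and Ccr8 the M-PDK1KO array was the lower of the ablated pair and the higher of the sham pair. The genes Ccl7, Ccl9, Cxcl14 and Ccr7 had differences of -0.064, 0.06, -0.048 and 0.025.

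**Figure D3:**
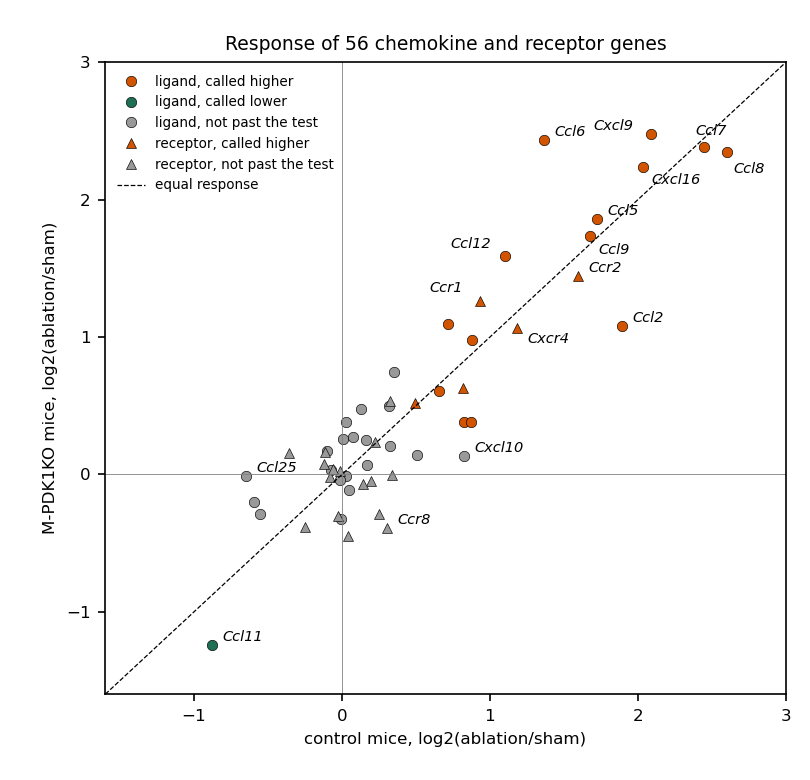
Response to ablation, log2(ablation/sham), in M-PDK1KO mice (y axis) against control mice (x axis) for the 56 genes, circles for ligands and triangles for receptors, colored by the test of the mean response. Most called genes lie near the dashed line of equal response, with Ccl6 above it and Ccl2 below it.

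Between the genotypes, no gene of the family passed the test for genotype over both surgeries (limma), and no gene at all did. At an unadjusted p under 0.05 there were 5 of 56, where 5.45% of all genes were past this limit. They were Ccl20, Ccl7, Ccr1, Pf4 and Cxcr2, with mean M-PDK1KO minus control differences of 0.42, 0.38, 0.37, 0.33 and -0.35 (adjusted p = 0.87 for each). Ccl20, the ligand of CCR6, read 2.88 in ablated and 3.08 in sham-operated M-PDK1KO mice, against 2.26 in ablated and 2.85 in sham-operated control mice, all below the overall median. The median M-PDK1KO minus control difference over the family was 0.09 after ablation and 0.12 after sham surgery, and over all genes it was near 0 in both. Cre is driven by a myofiber promoter, and which cells of the muscle the chemokine RNA came from was not tested.

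Many chemokine genes lie side by side in the genome, and neighbors differed in response. In the order of protein-coding genes of GRCm38.p6 on chromosome 11, Ccl2, Ccl7, Ccl11, Ccl12, Ccl8 and Ccl1 follow each other with no other gene between them. Ccl11, which fell, lies between Ccl7 and Ccl12, which rose, and Ccl1, next to Ccl8, had responses of -0.014 in M-PDK1KO and 0.025 in control mice. In a second uninterrupted group, the mean responses were 1.79 for Ccl5, 1.71 for Ccl9, 1.90 for Ccl6, 0.90 for Ccl3 and 0.31 for Ccl4, in that order along the chromosome. On chromosome 5, Pf4 (mean 0.93) is followed by Cxcl3 (-0.018), Cxcl15 (0.20), Cxcl1 (-0.027) and Cxcl2 (0.55), and Cxcl9 and Cxcl10 lie farther along.

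**Figure D4:**
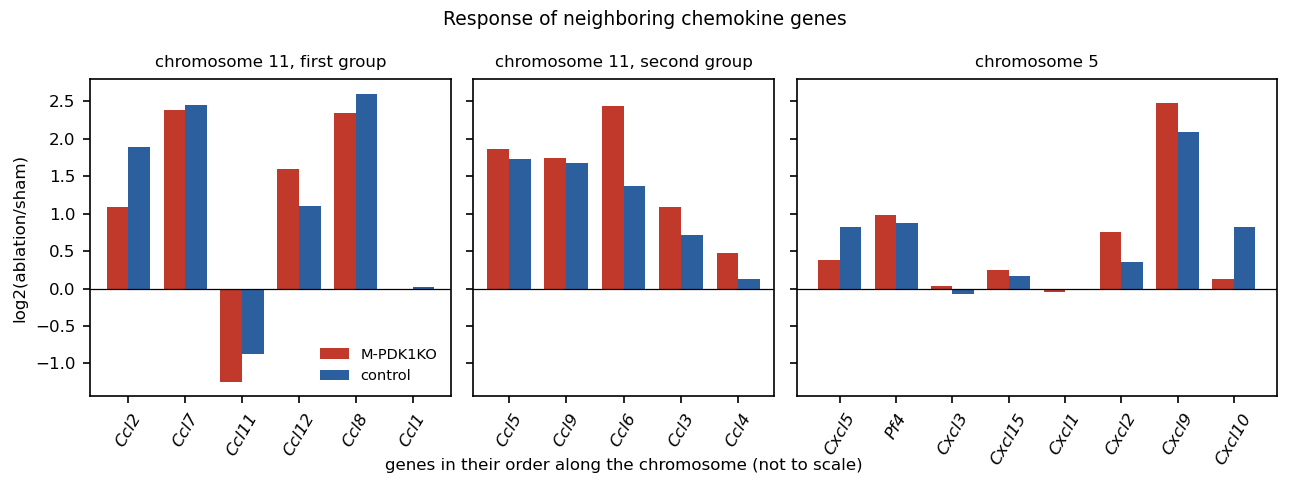
Response to ablation, log2(ablation/sham) (y axis), of chemokine genes in their order along chromosomes 11 and 5 (x axis, not to scale), red bars for M-PDK1KO and blue bars for control mice. Ccl11 is the only gene with both bars clearly below 0, between Ccl7 and Ccl12 with bars above 1.

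Promoter sequences of RefSeq (GRCm38.p6), which run over 300 bases with the last 50 downstream of the gene's start, were found for 42 of the 56 genes. The kappaB motif, which NF-kappaB binds, was searched on both strands. At least 1 match was held by 12 of the 42 genes, against 9.55% of all 27025 genes with such a sequence. Among genes with a sequence, these were 2 of the 13 that rose after ablation (Ccl9 and Ccr1) and 10 of the 29 others. No sequence was found for Ccl2, Ccl7, Ccl5, Cxcl16, Cxcl5 and Ccr7, which also rose, so their motifs are not known here. In the neutrophil ligand genes Cxcl1, Cxcl2 and Cxcl3, which were not called, the match is the same 11 bases, GGGAATTTCCC, held by 0.0518% of all genes. These 11 bases were picked as the kappaB stretch shared by the most genes of the family, so their rarity over all genes supports nothing. Ccl8 and Ccl12 rose and have no kappaB match in the window, but hold TATAAA 32 and 31 bases before the start, and Cxcl3 holds it 30 bases before. TATAAA, searched on both strands, was present in 6 of the 13 genes with a sequence that rose and 7 of the 29 others, against 15.7% of all genes. The interferon gamma-activated site (TTCNNNGAA) was found in 3 of the 42 genes, the interferon-stimulated response element in 2, the AP-1 site (TGANTCA) in 7 and the C/EBP site (TTGCNNAA) in 4, against 9.55%, 3.99%, 8.97% and 12.2% of all genes. These matches are descriptions of the sequence and were not tested for binding. The 5 promoters are shown 5′ to 3′ to set these rising and uncalled ligand genes side by side, with matches to the kappaB motif or TATAAA in capitals and overlapping matches joined. They lie on the plus strand at chr11:82114935-82115234 (Ccl8), chr11:82101595-82101894 (Ccl12), chr5:90890995-90891294 (Cxcl1), chr5:90903649-90903948 (Cxcl2) and chr5:90785851-90786150 (Cxcl3).
Ccl8: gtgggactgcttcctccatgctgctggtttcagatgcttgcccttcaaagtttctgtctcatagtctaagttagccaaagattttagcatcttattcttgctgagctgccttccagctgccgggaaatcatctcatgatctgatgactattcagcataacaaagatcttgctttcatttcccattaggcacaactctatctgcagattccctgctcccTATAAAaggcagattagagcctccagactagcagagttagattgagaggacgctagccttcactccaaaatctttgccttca
Ccl12: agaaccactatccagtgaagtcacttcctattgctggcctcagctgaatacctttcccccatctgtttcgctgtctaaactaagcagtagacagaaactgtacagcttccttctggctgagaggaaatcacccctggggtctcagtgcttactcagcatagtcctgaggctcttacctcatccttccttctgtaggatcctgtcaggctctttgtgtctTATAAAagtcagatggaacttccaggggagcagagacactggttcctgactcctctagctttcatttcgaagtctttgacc
Cxcl1: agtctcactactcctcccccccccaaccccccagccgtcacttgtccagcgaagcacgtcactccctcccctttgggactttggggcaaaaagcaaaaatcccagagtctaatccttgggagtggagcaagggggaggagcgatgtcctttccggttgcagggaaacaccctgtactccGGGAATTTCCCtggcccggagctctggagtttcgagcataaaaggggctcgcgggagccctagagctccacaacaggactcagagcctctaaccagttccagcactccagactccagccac
Cxcl2: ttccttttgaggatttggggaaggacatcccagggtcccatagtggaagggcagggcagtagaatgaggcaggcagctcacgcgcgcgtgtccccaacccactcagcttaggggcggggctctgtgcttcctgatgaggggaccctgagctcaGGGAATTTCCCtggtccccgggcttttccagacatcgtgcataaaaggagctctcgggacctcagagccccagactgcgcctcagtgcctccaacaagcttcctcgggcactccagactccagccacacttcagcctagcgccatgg
Cxcl3: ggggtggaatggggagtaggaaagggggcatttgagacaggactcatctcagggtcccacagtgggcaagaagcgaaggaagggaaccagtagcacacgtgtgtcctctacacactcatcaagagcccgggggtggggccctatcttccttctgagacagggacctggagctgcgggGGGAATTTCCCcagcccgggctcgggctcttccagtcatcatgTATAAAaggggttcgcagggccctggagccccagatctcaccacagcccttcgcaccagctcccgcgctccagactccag

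Genes that act downstream of, beside or upstream of chemokines were described from lists written from general knowledge. Earlier results of these data were known when the lists were chosen, so their counts are descriptions and test nothing. Among all genes, 10.4% were called higher and 10.6% lower. Of 33 measured genes of chemokine receptor signaling, 23 rose and 1 fell, and the median response was 0.77 in M-PDK1KO and 0.77 in control mice, beside -0.02 in each over all genes. Prkcb (protein kinase C beta) had a mean response of 1.26, the kinase gene Src of 1.06, Elmo1, which helps activate Rac in migrating cells, of 1.02, and Pik3cg, the phosphoinositide 3-kinase that chemokine receptors activate in leukocytes, of 1.02. Jak2, the gene for a cytokine receptor kinase, had a mean response of -1.19 and was the 1 that fell. Of 21 genes for the presentation and processing of chemokines, 12 rose and none fell, and the median response was 0.70 in M-PDK1KO and 0.56 in control mice. Mmp14, Mmp12 and Mmp2, whose proteases can trim chemokines, had mean responses of 3.95, 2.68 and 2.60, and Tnfaip6, whose product binds several chemokines, of 3.09. Of 25 genes listed as inducers or other regulators of chemokine genes, 9 rose and none fell. Their median response was 0.20 in M-PDK1KO and 0.28 in control mice. The list mixes activators with inhibitors, and Tnfaip3, which restrains NF-kappaB, was one of the 9 (mean response 0.91). Il1b (interleukin 1 beta) read 4.90 in M-PDK1KO and 3.76 in control mice after ablation, against 2.31 in M-PDK1KO and 1.97 in control mice after sham surgery (mean response 2.19 ± 0.21, SE, adjusted p = 0.00305). Myd88, Tlr4 and Irf7 had mean responses of 1.64, 1.44 and 1.24, whereas Tnf was below the overall median on each array, with a mean of -0.068 (adjusted p = 0.778). Of 9 related genes outside the family, Cmtm3 and Cmtm7 rose, by means of 1.86 and 0.70. Ccrl2, which encodes a receptor that binds chemerin without signaling, fell, with 3.79 in M-PDK1KO and 3.76 in control mice after ablation, against 4.68 in M-PDK1KO and 4.71 in control mice after sham surgery (mean response -0.92 ± 0.11, adjusted p = 0.00589).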

How the data were processed

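Total RNA of plantaris muscle from 4 conditions was hybridized to Affymetrix Mouse Gene 2.0 ST arrays, 1 per condition. The log2 signals were analysed as deposited, with 1 value per probe set and array. They ran between 0.70 and 13.2, with array medians between 2.66 and 2.69. The authors used Transcriptome Viewer. Background correction, summarisation and normalization are not given in the sources used here.

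Of 41345 probe sets, 23521 named 1 gene, and the brightest probe set on average stood for each of the 22180 genes. No filter on low values was applied. Of the 56 chemokine genes, 30 exceeded the overall median of 3.23 on 1 or more arrays. A model of the log2 signal with genotype and surgery was fitted to all genes with limma 3.58.1 in R 4.3.3, with Benjamini-Hochberg adjustment over all genes, and was tested on simulated data. Single arrays give no replicate check, and their number limits the precision. Promoter sequences and gene order come from RefSeq, GRCm38.p6. Tables and plots used Python 3.11.15.

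The family and the lists were chosen with earlier results of these data known. Genes described with all 4 values are those past the threshold, the 4 with the largest difference of response and the 3 with the largest genotype difference. Partner receptors and ligands were added. Of each other list, up to 4 genes were named by their mean response, and others (Jak2, Tnf, Ifng, Ccrl2 and markers) after their values were seen. Gene names come from the platform annotation, which can be old. Alternatives were averaging the probe sets of a gene, quantile normalization, median centring, a filter, limma with a trend, ablation as the only term and a 4-fold cutoff.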

Additional observations from a re-analysis of the deposited data

Results flagged for a closer look

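Ccr8, the receptor gene for CCL8 and CCL1, had opposite responses in the genotypes, -0.39 in M-PDK1KO and 0.30 in control mice, a difference of -0.69 (M-PDK1KO minus control). It was the only gene of the family with opposite signs and a difference over 2 SD of that of all genes. Its log2 signals were 2.08 in ablated and 2.47 in sham-operated M-PDK1KO mice, against 2.46 in ablated and 2.16 in sham-operated control mice, all below the overall median of 3.23. The difference was not tested, since each condition has 1 array.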

How the results depend on the processing

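The counts of 19 genes higher and 1 lower after ablation, of 13 and 11 genes at least 2-fold higher in M-PDK1KO and control mice, and of 0 differing by genotype stayed within 1.5 times under each alternative run, with these exceptions. With each array centred on its median, 2 genes were lower, Ccl28 joining Ccl11, and Cx3cl1 and Cxcl5 were no longer called higher. With a 4-fold cutoff, 5 genes were higher in M-PDK1KO and 4 in control mice. Median centring put the family's median response at 0.13 in M-PDK1KO and 0.15 in control mice. It was 0.69 in M-PDK1KO and 0.82 in control mice when only genes above the overall median were kept, which left 30 of the 56. That filter keeps a gene above the overall median on any 1 array, and Ccl8, Ccl12, Ccl3, Ccl4, Cxcl10, Cxcl2, Cxcl5, Ccr1 and Ccr2 passed it through ablated arrays only, so the response itself decides who is kept and these medians, and the calls under the filter, support nothing. Outside that filter, Cxcl12 was called higher under quantile normalization, limma with a trend and ablation as the only term. Cxcl2 was called higher under quantile normalization and ablation as the only term, and Cxcr6 under quantile normalization alone. The genotype count was not run with a trend or with ablation alone. No paired analysis was possible because each condition has 1 array and the labels give no replicate numbers. For the same reason no array could be left out, since the fit would keep no residual degree of freedom. Genes below the overall median have low signals, and how far these lie above background is not known, which limits the receptors not called and the fitted responses of Ccl8, Ccl12, Ccl3, Cxcl5, Ccr1, Ccr2 and Ccr7, called genes with both sham values there.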
